A study of Mus musculus with 8 samples.

Results

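The BMP receptor gene *Bmpr1a* was deleted in the germ cells of the fetal mouse ovary. Among the genes with the largest loss of transcript in these ovaries were 5 that are not classic meiotic genes: *Sct*, *Gabra5*, *Lypd4*, *Ankrd63* and *Fam90a1b*. They were picked, out of 25239 gene symbols counted and 14249 tested, for the size of their decrease in these same 8 libraries, so the fall of each gene is described below and not tested. RNA-Seq had been run on whole ovaries of female embryos (C57BL/6) at E14.5, with 4 control (*Bmpr1a* fl/fl) and 4 *Bmpr1a*-cKO (*Bmpr1a* fl/fl; Oct4-Cre Cre/WT) libraries. Each library pooled the ovaries of 2 embryos, 8 embryos per genotype from 6 litters in all, and the litter behind each library is not given in the sources used here. Injections of 1 mg 4-hydroxytamoxifen with 0.5 mg progesterone were given to all dams, the first at 9.5 dpc and the last at 11.5 dpc with another at 10.5 dpc, and control embryos therefore met the drug too. The tamoxifen-inducible Cre is driven from the *Oct4* (*Pou5f1*) locus and acts in germ cells, which means that the somatic cells of the cKO ovary kept the receptor. Only cKO embryos carried the Cre allele, so effects of the allele and of the deletion cannot be told apart.

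BMP ligands bind receptor complexes that include BMPR1A (ALK3), and the activated receptor phosphorylates SMAD transcription factors, which then switch target genes such as *Msx1* and *Msx2* on. At this age the germ cells of the ovary leave the mitotic cycle and enter meiotic prophase, a step for which the transcriptional regulators STRA8 and MEIOSIN are needed. None of the 5 genes is a textbook component of either process. Secretin (*Sct*) is a hormone of the gut, the alpha 5 subunit encoded by *Gabra5* belongs to GABA-A receptors, which are chloride channels of neurons, and LYPD4 is a membrane-anchored protein of the Ly6/uPAR family known from sperm.

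The libraries held 8562961 to 15365052 counts, and 3 counts of a gene corresponded to 0.189 to 0.357 CPM (counts scaled to a common library size). The germ cell markers *Ddx4* and *Dazl* and the pregranulosa marker *Foxl2* were present in every library, as ovary requires. *Bmpr1a* itself averaged 218 ± 15.3 CPM (SD, n = 4) in control and 194 ± 10.4 CPM in cKO ovaries. These are counts over the whole gene in tissue where somatic cells keep it, so they do not check the labels. The BMP targets *Msx1* (log2 FC -1.20, FDR = 1.68e-07) and *Msx2* (log2 FC -1.81, FDR = 1.54e-07; edgeR quasi-likelihood test) were lower in the cKO. In whole ovaries, fewer cells of a type and less RNA per cell cannot be told apart.

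The sequence around the start site is shown for the genes in which a searched motif was found, since it is a feature that the choice of genes did not use. RefSeq windows (GRCm38.p6, 250 bases before to 50 after the start) were found for all 5 genes. They were searched on both strands for 6 motifs. GGCGCC is a GC-rich site bound by SMAD proteins. The motif CNCCTCAG was reported for STRA8. Further motifs were the E-box, spelled CACGTG, and the E2F6 site, spelled GGCGGGAA. The cAMP response element was searched as TGACGTCA, and the TATA box as TATAAA. Capitals mark the matches. The runs below go from 180 bases before to 10 bases after the start, 5′ to 3′ on the strand of the gene.
Sct (chr7:141279124-141279313, minus strand): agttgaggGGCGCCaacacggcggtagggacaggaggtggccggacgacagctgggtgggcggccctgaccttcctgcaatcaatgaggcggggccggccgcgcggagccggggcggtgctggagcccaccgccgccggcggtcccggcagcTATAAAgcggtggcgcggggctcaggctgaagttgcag
Gabra5 (chr7:57510050-57510239, minus strand): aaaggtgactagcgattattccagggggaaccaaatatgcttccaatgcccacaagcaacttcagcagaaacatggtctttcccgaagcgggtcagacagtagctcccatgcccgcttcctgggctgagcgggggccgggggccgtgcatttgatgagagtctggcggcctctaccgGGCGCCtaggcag
Ankrd63 (chr2:118703954-118704143, minus strand): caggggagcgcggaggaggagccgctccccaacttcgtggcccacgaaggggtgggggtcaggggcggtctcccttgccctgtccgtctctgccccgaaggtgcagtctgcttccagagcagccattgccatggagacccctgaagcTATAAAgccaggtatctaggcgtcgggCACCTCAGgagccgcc
For *Lypd4* the RefSeq start lies 250 bases inside the gene model of GENCODE vM21, so only its match with 10 bases on each side and the 115 bases between the *Lypd4* and *Dmrtc2* gene models are shown.
Lypd4 site (chr7:24869753-24869780, minus strand): aaccgtggtcCTGAGGCGttgactcaga
Lypd4 to Dmrtc2 (chr7:24869942-24870056, plus strand): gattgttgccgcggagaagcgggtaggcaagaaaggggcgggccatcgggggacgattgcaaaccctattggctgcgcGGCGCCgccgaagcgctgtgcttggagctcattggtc

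GGCGCC was found in the *Sct* window, starting 172 bases before the start, and in the *Gabra5* window, where it spans the start. It was present in 11.9% of all 32851 RefSeq windows. CNCCTCAG, held by 7.94% of all windows, was found at the start of *Ankrd63*. It was also found, on the other strand, 79 bases before the RefSeq start of *Lypd4*, a position inside the first exon of its GENCODE model. A TATAAA lay 28 bases before the start of *Sct* and 33 bases before that of *Ankrd63*, with 13.6% of all windows holding one. The windows of the 5 genes held no match to CACGTG (7.15% of all windows), GGCGGGAA (2.19%) or TGACGTCA (1.79%), and that of *Fam90a1b* held no match to any of the 6 motifs. The windows lay in the upper part of the CpG range, with 24 CpG dinucleotides in *Sct* and in *Ankrd63* (81.6 percentile), 13 in *Gabra5* (63.7), 18 in *Lypd4* (71.9) and 27 in *Fam90a1b* (85.8), the median of all windows being 7. The shares given are those of all windows and are not matched for CpG count, and GGCGCC itself holds a CpG. A match to short letters is a description and shows neither binding nor its absence.

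*Fam90a1b*, a member of a family named for its sequence similarity, had the largest fall of all 14249 genes tested in the edgeR fit. Its place depended on the method, since *Sct* fell more than *Fam90a1b* with limma-voom (log2 FC -3.43 against -2.91), with a prior count of 2 (-2.62 against -2.51) and as a ratio of mean CPM (-3.15 against -3.09). *Lypd4* also fell more than *Fam90a1b* with limma-voom (-3.00) and with a prior count of 2 (-2.58). *Fam90a1b* lies on the minus strand of chromosome X (94355053 to 94366777, GRCm38) with 7 exons. It was counted 25, 22, 23 and 44 times in control libraries 1 to 4, or 2.05, 1.95, 2.15 and 2.77 CPM, and 2, 3, 3 and 4 times in cKO libraries 1 to 4, or 0.238, 0.223, 0.314 and 0.273 CPM. The lowest control library was 6.20 times the highest cKO library, the widest gap among the 5 genes. The mean went from 2.23 ± 0.371 to 0.262 ± 0.0403 CPM (SD, n = 4), a log2 FC of -3.07 (SE 0.31). With 12 counts in the 4 cKO libraries together, the pooled level was 11.4% of control, with an exact 95% interval from counting error alone of 5.73 to 20.7%. In 3 of the 4 cKO libraries the count did not exceed 3. The only other gene of this name in the count files, *Fam90a1a*, had no count in any library, and how the counting dealt with near-identical copies is not given in the sources used here.

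Secretin belongs to the peptide hormones that act through class B receptors and raise cAMP. *Sct* (chromosome 7, 141278330 to 141279133, minus strand, 3 exons, 645 bases of exon) had the second largest fall in the edgeR fit. Its level was 2.87, 3.72, 3.37 and 3.09 CPM in control libraries 1 to 4, from 35, 42, 36 and 49 counts. In the cKO, libraries 2 to 4 had 0.297, 0.627 and 0.545 CPM, from 4, 6 and 8 counts, and library 1 had 0 counts, which allows up to 0.357 CPM. All cKO libraries were below all control libraries, and the cKO libraries differed more among themselves than those of *Fam90a1b*. The mean fell from 3.26 ± 0.364 to 0.367 ± 0.282 CPM (SD, n = 4), with a log2 FC of -3.03 (SE 0.35). The pooled cKO level was 12.1% of control (exact 95% counting interval 6.97 to 19.7%).

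*Gabra5* (chromosome 7, 57407672 to 57510059, minus strand, 12 exons) had the fourth largest fall, after the meiotic gene *Mei1*. Control libraries 1 to 4 gave 1.72, 2.30, 2.99 and 2.40 CPM, from 21, 26, 32 and 38 counts. The cKO libraries gave 0.357, 0.223, 0.523 and 0.204 CPM, from 3, 3, 5 and 3 counts, so 3 of 4 did not exceed 3 counts. The lowest control library stood 3.30 times above the highest cKO library. The mean fell from 2.35 ± 0.520 to 0.327 ± 0.147 CPM (SD, n = 4; log2 FC -2.90, SE 0.34), and the pooled level was 13.0% of control (exact 95% counting interval 6.89 to 22.7%). The antisense gene *Gm9962* overlaps 148 bases of its last exon and had 3 counts over all 8 libraries.

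*Lypd4* was the most abundant of the 5 genes. It is encoded on the minus strand of chromosome 7 (24864620 to 24869941, 5 exons). In control libraries 1 to 4 its level was 9.77, 6.02, 9.26 and 9.77 CPM (119, 68, 99 and 155 counts), library 2 lying below the other 3. In cKO libraries 1 and 2 it was 0.595 and 0.446 CPM (5 and 6 counts), whereas libraries 3 and 4 had 1.46 and 2.52 CPM (14 and 37 counts). The genotypes did not overlap, and the lowest control library was 2.39 times the highest cKO library. The mean fell from 8.71 ± 1.81 to 1.26 ± 0.955 CPM (SD, n = 4), a log2 FC of -2.71 (SE 0.33), which became -3.44 without cKO library 4. Pooled over libraries, 15.3% of the control level was left (exact 95% counting interval 11.5 to 19.9%), and the spread between the cKO libraries exceeded what counting alone gives, with a coefficient of variation of 76.0% against 25.4%.

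*Ankrd63* encodes a protein with ankyrin repeats, which are modules for binding other proteins, and consists of 1 exon (chromosome 2, 118699103 to 118703963, minus strand). Its fall was the ninth largest. Control libraries 1 and 4 had 1.40 and 1.39 CPM (17 and 22 counts) and libraries 2 and 3 had 2.30 and 3.09 CPM (26 and 33 counts), so that the control libraries spread more, in proportion, than those of the other 4 genes (coefficient of variation 40.0%, against 11.2 to 22.1%). The cKO libraries had 0.357, 0.520, 0.314 and 0.273 CPM, from 3, 7, 3 and 4 counts. No cKO library reached a control library, the nearest pair being 2.67 times apart. The mean fell from 2.04 ± 0.818 to 0.366 ± 0.108 CPM (SD, n = 4; log2 FC -2.40, SE 0.38), leaving a pooled 18.8% (exact 95% counting interval 10.5 to 31.7%).

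**Figure D1:**
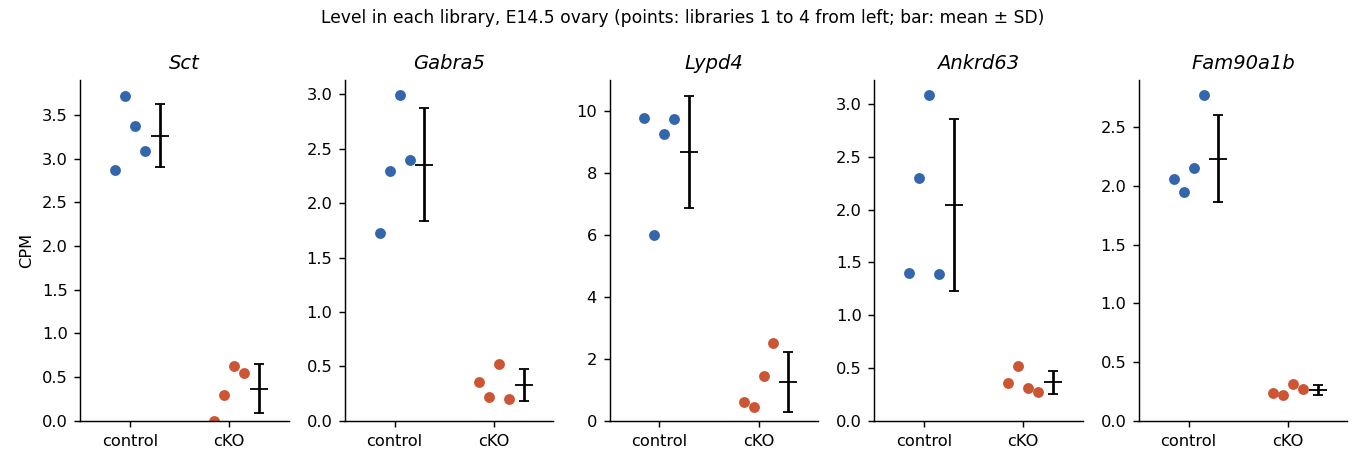
CPM of the 5 genes in each E14.5 ovary library, control (blue) and *Bmpr1a*-cKO (orange), each panel with its own linear axis from 0. Points are libraries 1 to 4 of each genotype from left to right and bars show the mean ± SD (n = 4). In every panel the lowest control point lies above the highest cKO point, by 2.39 times (*Lypd4*) to 6.20 times (*Fam90a1b*).

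The whole group can be placed against the other genes of the comparison. All 5 genes passed the filter on low counts, and each did so through its control libraries, so a gene as low as this in the cKO could enter only by being higher in control. Of all genes tested, 10.2% were called (absolute log2 FC above 0.5 and FDR below 0.05 by the quasi-likelihood test of edgeR), 4.06% as lower and 6.11% as higher in the cKO. In 11.7% of genes every cKO library lay below every control library. The 5 genes were selected by this contrast, so nothing is read from their being among these shares. Next to them, *Mei1* (log2 FC -2.92), which is needed for meiotic DNA breaks, *Meiob* (-2.59), a single-strand DNA binding protein, the meiotic cohesin gene *Rad21l* (-2.49) and *Dmrtc2* (-2.45) fell by at least as much as *Ankrd63* and were not taken. Just beyond the smallest fall of the group came the homeobox gene *Cdx2* (-2.33), the MEIOB partner *Spata22* (-2.33), *Tmem28* (-2.31), the transcriptional co-regulator *Cited1* (-2.29) and the zinc-finger gene *Insm1* (-2.24).

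On the CPM scale all 5 genes were low even in the control ovary, whereas per length of exon only *Gabra5*, *Fam90a1b* and *Ankrd63* were. Their mean control CPM ranked between the 9.21 percentile (*Ankrd63*) and the 26.1 percentile (*Lypd4*) of genes tested. Per kilobase of exon, the control level was 6.29 ± 1.31 CPM per kb for *Lypd4* and 5.06 ± 0.564 for *Sct* (SD, n = 4), close to the median of 6.12 over all genes tested. These 2 genes did not differ beyond their spread, since their control libraries overlapped. Next came *Gabra5* (0.791 ± 0.175 CPM per kb), with all its control libraries below those of *Sct*, and *Fam90a1b* (0.738 ± 0.123), whose libraries overlapped those of *Gabra5*. The lowest level was that of *Ankrd63* (0.420 ± 0.168 CPM per kb), below *Fam90a1b* in every control library. In the cKO the levels per kb were 0.907 ± 0.690 for *Lypd4*, 0.570 ± 0.438 for *Sct*, 0.110 ± 0.0495 for *Gabra5*, 0.0866 ± 0.0133 for *Fam90a1b* and 0.0753 ± 0.0223 for *Ankrd63*.

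**Figure D2:**
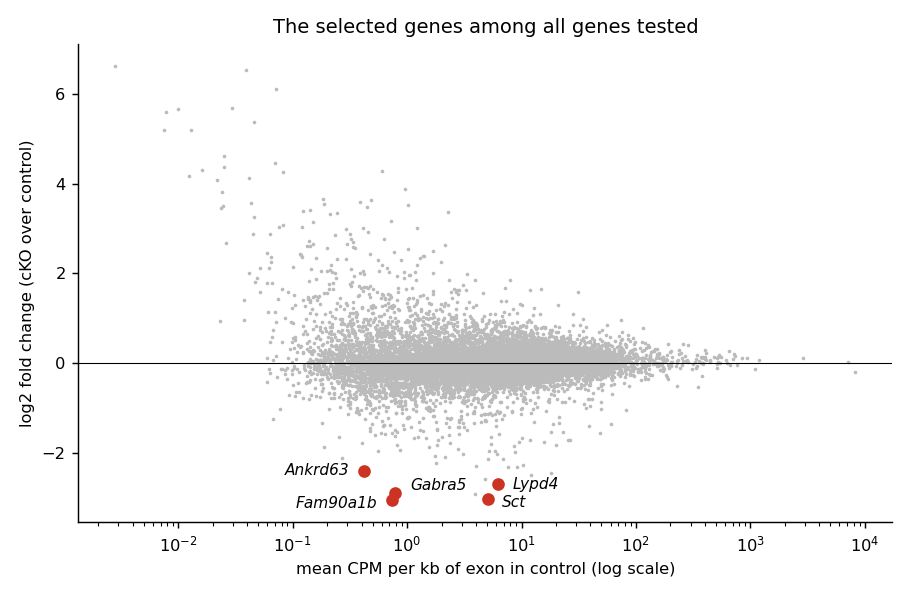
Log2 fold change (cKO over control) against the mean control level per kb of exon (log scale) for the genes tested, as grey points, with the 5 genes in red. They lie at the lower edge between -3.07 and -2.40, *Ankrd63*, *Fam90a1b* and *Gabra5* at 0.420 to 0.791 CPM per kb and *Sct* and *Lypd4* at 5.06 and 6.29 CPM per kb.

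The single cKO libraries differed in how much of *Lypd4* was left. *Lypd4* kept 6.84 and 5.12% of its control mean in cKO libraries 1 and 2 but 16.8 and 29.0% in libraries 3 and 4. *Sct* was also lower in libraries 1 and 2 (0 and 9.11%) than in 3 and 4 (19.2 and 16.7%), although these rest on at most 8 counts. *Fam90a1b* kept 10.7, 9.99, 14.1 and 12.2%, *Ankrd63* 17.5, 25.5, 15.4 and 13.3%, and *Gabra5* 15.2, 9.47, 22.2 and 8.69% in cKO libraries 1 to 4. For these 3 genes, with 2 to 7 counts per cKO library, the spread was below what counting alone gives (coefficients of variation of 15.4, 29.6 and 45.1% against 57.7, 48.5 and 53.5%), so whether they followed the order of *Lypd4* was not detectable at this depth.

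Genes of known function differed between these libraries too. *Sycp3*, of the synaptonemal complex, kept 16.9, 30.6, 46.7 and 58.7% of its control mean in cKO libraries 1 to 4, and *Meiosin* (*Gm4969*), the partner of *Stra8*, kept 17.0, 23.2, 33.2 and 37.3%. Of the BMP targets, *Msx1* (47.1, 41.6, 45.2 and 40.5%) and *Msx2* (27.4, 22.5, 32.3 and 31.4%) were more even. The germ cell BMP target *Zglp1* was less so, with 40.0, 27.2, 44.7 and 51.0%, from 22, 24, 28 and 49 counts. The germ cell marker *Ddx4* stood at 74.6% of its control mean in cKO library 1 and at 118, 112 and 126% in libraries 2 to 4, so the libraries also differed in this marker. Its part in the pattern of *Lypd4* was not tested. With *Ddx4* as the scale the log2 FC of *Lypd4* was -2.93, and over the whole ovary *Ddx4* was not called (log2 FC 0.11, FDR = 0.561, edgeR).

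**Figure D3:**
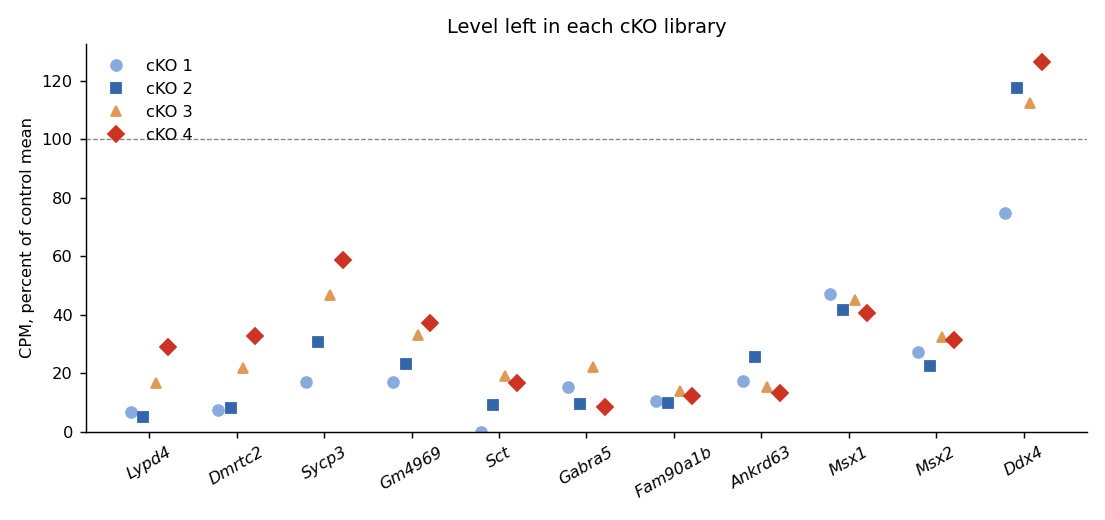
CPM in each of the 4 cKO libraries as a percentage of the control mean, for the 5 genes and for *Dmrtc2*, *Sycp3*, *Gm4969* (*Meiosin*), *Msx1*, *Msx2* and *Ddx4*. The dashed line is the control mean. *Lypd4* and *Dmrtc2* are lowest in cKO libraries 1 and 2 (5.12 to 8.16%) and highest in library 4 (29.0 and 32.8%), while *Fam90a1b*, with at most 4 counts per library, lies between 9.99 and 14.1%.

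Likeness of pattern was measured as the root mean square difference of centred log2 CPM over all 8 libraries (prior count 2), a measure that holds the fall itself, so that genes with a large fall come first by construction. The gene most like *Lypd4* was *Dmrtc2*, at a distance of 0.15, against a median distance of 1.58 to all genes tested, followed by *Rad21l* (0.25), *Mei1* (0.30), *Spata22* (0.36) and *Cited1* (0.37). *Sct* was nearest to *Meiob* (0.35), and also near *Cited1* (0.48), *Dmrtc2* (0.50) and *Zfp541* (0.55). *Gabra5* and *Fam90a1b* were 0.30 apart, and *Fam90a1b* was the gene closest to *Gabra5*. The next for *Gabra5* were the homeobox gene *Dlx3* (0.31), *Insm1* (0.31), *Cdx2* (0.31) and *Tmem28* (0.35). *Fam90a1b* itself was closest to *Tmem28* (0.29), with *Spata22* (0.36), *Tex16* (0.36) and *Zfp541* (0.37) after *Gabra5*. *Ankrd63* was closest to *Cdx2* (0.29), then to the endocytic receptor gene *Cubn* (0.32), *Dlx3* (0.34), *Gata2* (0.34) and *Insm1* (0.35). At these counts the order of near neighbours is set in part by counting error, most of all for *Gabra5*, *Ankrd63* and *Fam90a1b*.

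Among the neighbours on the chromosome, which the choice of genes did not use, 1 fell with the gene beside it. *Dmrtc2*, a gene of the DMRT family known for its need in male meiosis, is transcribed away from *Lypd4*, and the ends of both gene models are 116 bp apart. It had 33.0, 20.0, 32.2 and 31.3 CPM in control libraries 1 to 4 and 2.14, 2.38, 6.38 and 9.54 CPM in cKO libraries 1 to 4. As for *Lypd4*, control library 2 was the lowest of the controls and cKO libraries 3 and 4 were above 1 and 2. *Dmrtc2* fell with a log2 FC of -2.45 (SE 0.30, FDR = 2.37e-05, edgeR), with no overlap of libraries, and with a log2 FC of -3.04 without cKO library 4. The RefSeq windows of both genes share 135 bases, and the only motif in the *Dmrtc2* window was GGCGCC, 37 bases before its start, in the run printed above. The *Lypd4* window, set at its RefSeq start, held no GGCGCC. Seen from the GENCODE start of *Lypd4*, 250 bases further out, the same GGCGCC lies upstream, within the 115 bases between the gene models.

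The other close neighbours did not fall in this way. *Apoo*, of the mitochondrial MICOS complex, is transcribed away from *Fam90a1b* at 340 bp and had 2.43 ± 0.896 CPM in control and 2.75 ± 1.05 CPM in cKO ovaries (SD, n = 4; log2 FC 0.24, FDR = 0.587). *Gabrg3*, which encodes a subunit of GABA-A receptors and lies 20484 bp from *Gabra5*, had a log2 FC of -0.38 (FDR = 0.116). Beside *Ankrd63*, the kinase gene *Pak6* (-0.48, FDR = 0.0217) and the phospholipase gene *Plcb2* (-0.40, FDR = 0.0321) passed the FDR but not the fold threshold. *Bub1b*, a kinase of the spindle checkpoint 57512 bp from *Ankrd63*, rose (0.74, FDR = 2.93e-07; 0.0670 with *Ddx4* as the scale), as did the lipid flippase gene *Atp10a* near *Gabra5* (0.95, FDR = 2.35e-05), at more than 1 Mb. The gene next to *Sct* on its lower side, *Cdhr5*, had 13 counts in all libraries together. Of the 32 genes counted as neighbours (up to 3 on each side and those that overlap), 22 were tested, of which 1 was lower, 2 were higher and 19 were not called, with a median log2 FC of -0.04, against a median of -0.004 over all genes tested. A share of 3 in 22 is near the 10.2% of all genes.

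**Figure D4:**
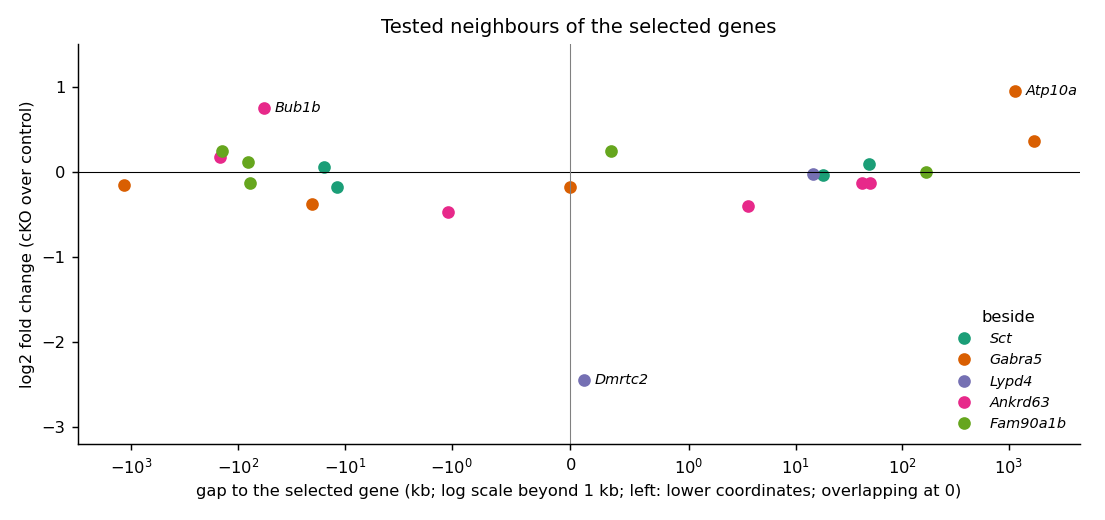
Log2 fold change (cKO over control) of the 22 tested neighbours of the 5 genes against their gap to that gene in kb (linear to 1 kb and log scale beyond, lower coordinates to the left, overlapping genes at 0). Colours give the gene they lie beside. *Dmrtc2*, next to *Lypd4*, stands apart at -2.45, and the called neighbours *Bub1b* (0.74) and *Atp10a* (0.95) were higher.

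Secretin acts on its receptor SCTR, a relative of the receptors for VIP, PACAP, glucagon and growth hormone releasing hormone. *Sctr* had 8 counts over all 8 libraries and was not tested. Of the 14 other ligand and receptor genes of the family listed, 3 were tested, too few to set against the share called among all genes. *Vipr2*, a receptor for VIP and PACAP, was lower in the cKO, with 3.86, 3.27, 3.55 and 3.97 CPM in control and 0.953, 0.966, 0.941 and 1.98 CPM in cKO libraries 1 to 4 and no overlap (log2 FC -1.54, SE 0.24, FDR = 0.000257, edgeR). *Vipr1* was not called (-0.67, FDR = 0.177). The PACAP receptor gene *Adcyap1r1*, the highest of the list per kb, had 45.1 ± 0.909 CPM in control and 44.6 ± 2.19 CPM in cKO ovaries (SD, n = 4; log2 FC -0.02, FDR = 0.887).

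GABA-A receptors are built from several subunits, and *Gabra5* was neither the only nor the most abundant subunit gene in the ovary. *Gabra4* had 58.4 ± 4.66 CPM in control and 55.4 ± 3.12 CPM in cKO ovaries (SD, n = 4; log2 FC -0.08, FDR = 0.433). Of the 34 other genes for GABA receptors, synthesis, transport and breakdown, 17 were tested and 0 were called by edgeR, by DESeq2 or by limma-voom, while 4 had an unadjusted p below 0.05. Among all genes 10.2% were called. Their median log2 FC was -0.08. *Abat*, which breaks GABA down, had the highest level per kb in control (20.2 CPM per kb) and a log2 FC of -0.22 (FDR = 0.0391). *Gabrq*, of the theta subunit, was too low for the filter, with 0.989 ± 0.165 CPM in control and 0.379 ± 0.119 CPM in cKO ovaries (SD, n = 4). *Gad2* (0.278 ± 0.0818 and 0.949 ± 0.743 CPM), *Gabrp* (0.0205 ± 0.0411 and 0.261 ± 0.180 CPM) and *Gabrd* (0 and 0.203 ± 0.232 CPM), also too low, had higher means in the cKO. Without a filter *Gabrq* was called lower (log2 FC -1.32, FDR = 0.0152, edgeR). *Gad2* (1.73, FDR = 0.0184), *Gabrp* (3.04, FDR = 0.0358) and *Gabrd* (4.31, FDR = 0.033) were then called higher, on 58, 12 and 9 counts in all.

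In the Ly6/uPAR family, whose members carry a small cysteine-rich domain, 14 of the 46 other genes were tested and 2 were lower in the cKO, a count to be read beside the 4.06% called lower among all genes. *Tex101*, a germ cell glycoprotein of this family, had 47.3, 30.8, 46.5 and 46.0 CPM in control and 7.86, 9.58, 13.4 and 19.8 CPM in cKO libraries 1 to 4 (log2 FC -1.72, SE 0.20, FDR = 2.09e-05, edgeR). Its lowest control library was library 2 and its cKO libraries 3 and 4 exceeded 1 and 2, as for *Lypd4*. *Ly6d*, known from lymphoid progenitors, went from 3.55 ± 1.57 to 1.40 ± 0.263 CPM (SD, n = 4; log2 FC -1.27, FDR = 0.00555). The other 12 were not called, and the median over the 14 was -0.17.

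Of the 46 other genes named for ankyrin repeat domains, 33 were tested, of which 4 were lower, 1 was higher and 28 were not called (median log2 FC -0.07). *Ankrd31*, which helps to place meiotic DNA breaks, fell with a log2 FC of -1.43 (SE 0.23, FDR = 0.00025), from 17.1 ± 4.80 to 6.23 ± 2.31 CPM (SD, n = 4). *Ankrd29* (-1.25, FDR = 3.29e-05) and *Ankrd34b* (-0.86, FDR = 0.00954) were also lower. *Ankrd35* was called lower (-0.60, FDR = 0.0296), but not without control library 1, control library 4, cKO library 2 or cKO library 4 (FDR = 0.101, 0.0770, 0.0885 and 0.0736). The call was also lost with DESeq2 (FDR = 0.0656) and with *Ddx4* as the scale (FDR = 0.213). *Ankrd45* rose (0.91, FDR = 0.00118; edgeR), a call lost with *Ddx4* as the scale (FDR = 0.0666). *Ankrd50*, the highest of the family per kb, had 203 ± 13.0 CPM in control and 176 ± 8.09 CPM in cKO ovaries (SD, n = 4) and did not pass the fold threshold (log2 FC -0.20, FDR = 0.0205). The count of 5 in 33 can be read beside the 10.2% called among all genes.

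**Figure D5:**
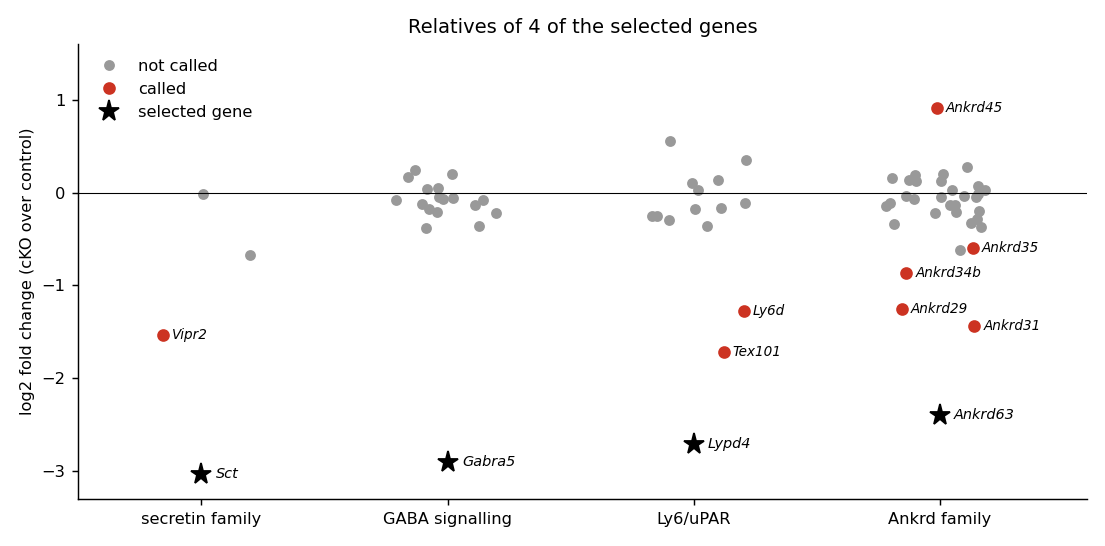
Log2 fold change (cKO over control) of the tested relatives of *Sct*, *Gabra5*, *Lypd4* and *Ankrd63*. Red points were called, grey points were not, and stars show the selected genes, which have no test. Called relatives were *Vipr2* (-1.54), *Tex101* (-1.72), *Ly6d* (-1.27) and 5 of the *Ankrd* family, from -1.43 (*Ankrd31*) to 0.91 (*Ankrd45*), and 0 of GABA signalling.

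Because *Sct* and *Gabra5* are known from endocrine cells and neurons, markers of these cells were examined. Of 8 neuronal markers 3 were tested and 0 called (0 also at an unadjusted p below 0.05 and 0 by DESeq2). Their summed level was 5.57 to 7.11 CPM in control and 6.00 to 8.54 CPM in cKO libraries. Of 6 markers of enteroendocrine and endocrine pancreas cells 2 were tested and 0 called (0 at an unadjusted p below 0.05, 0 by DESeq2). Their summed level was 3.61 to 5.99 CPM in control and 5.12 to 7.84 CPM in cKO libraries, and *Neurod1* was at 0 in all. *Neurog3*, too low for the filter with 30 counts in all, had 0.0660 ± 0.0443 CPM in control and 0.571 ± 0.199 CPM in cKO ovaries (SD, n = 4). Without a filter it was called higher (log2 FC 3.06, FDR = 0.0016, edgeR). *Pax6* was not called (log2 FC 0.56, FDR = 0.142). With the replicate number as a block (FDR = 0.0436), or without control library 3 (0.042) or cKO library 1 (0.0275), it was called higher. Of 4 markers of Schwann cells and neural crest 1 was tested and 0 called (0 at an unadjusted p below 0.05, 0 by DESeq2), with sums of 8.70 to 9.01 and 7.80 to 11.3 CPM. The sums overlapped between genotypes in all 3 lists.

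Of the 6 germ cell markers, *Mael* was lower (log2 FC -0.80, FDR = 0.000507), *Dazl* (0.63, FDR = 0.00101) and *Dnd1* (0.78, FDR = 0.00151) were higher, and *Ddx4*, *Tdrd1* and *Rnf17* were not called. Their summed level overlapped between genotypes, at 598 to 806 CPM in control and 628 to 991 CPM in cKO libraries. Among somatic markers, *Foxl2* of the pregranulosa cells was lower (log2 FC -0.57, FDR = 1.8e-05), as was *Gata3* of the mesonephros (-0.56, FDR = 0.0192), while *Adgre1* of macrophages was higher (0.78, FDR = 0.00227; edgeR). The call of *Gata3* was lost without control library 3, cKO library 2 or cKO library 4. At an unadjusted p below 0.05 stood 5 of the 6 pregranulosa, 3 of the 5 mesonephros and 3 of the 4 tested macrophage markers. All 6 pregranulosa markers had a log2 FC below 0, among them *Rspo1* (-0.48), *Irx3* (-0.46) and *Fst* (-0.31), which did not reach the fold threshold. With *Ddx4* as the scale, *Mael* and *Dnd1* alone of all markers were called. The summed levels were 1213 to 1464 CPM in control and 1029 to 1232 CPM in cKO libraries for the 6 pregranulosa markers. For the 5 of mesonephros they were 135 to 166 and 106 to 124 CPM. Most of that was 1 gene, *Emx2*, with 119 ± 13.8 CPM in control and 99.0 ± 6.93 CPM in cKO ovaries (SD, n = 4). For the 5 of macrophages the sums were 22.2 to 27.9 and 30.2 to 36.4 CPM. The part of these lists in the fall of the 5 genes was not tested. Of the stroma, endothelium, erythroid and Sertoli cell markers, 0 were called by edgeR or DESeq2, with 0, 0, 0 and 1 at an unadjusted p below 0.05, and the erythroid genes *Hbb-bt* and *Hba-a1* were at 0 in all libraries. Which cells hold the transcripts of the 5 genes was not tested.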

How the data were processed

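RNA-Seq of E14.5 ovaries was analysed in 4 control and 4 *Bmpr1a*-cKO libraries. The authors trimmed reads and mapped them to mm10 (per the submitters' processing notes with Trimmomatic 0.39, FastQC 0.11.9, STAR 2.5.2 and edgeR), and deposited raw counts per gene symbol for each library. The annotation and the strand setting of the counting are not given in the sources used here. The deposited CPM table was not used.

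The deposited counts were turned into CPM, log2 FC, SE and FDR with edgeR 4.0.16 in R 4.3.3 (filterByExpr, TMM, quasi-likelihood F test, two-sided, Benjamini-Hochberg over 14249 genes, prior count 0.125). A gene was called at an absolute log2 FC above 0.5 with an FDR below 0.05. CPM used the total count times the TMM factor (0.972 to 1.03) as the library size. Exon lengths, positions and overlaps came from GENCODE vM21 (GRCm38), in which 24374 of the 25239 symbols were found. Counting intervals were exact binomial intervals of the pooled counts, and with the limit of 3 counts they cover counting error only. Totals ran from 8562961 to 15365052 counts. The libraries of a genotype were taken as separate samples, each a pool of 2 embryos, and their shared litters are not known. The procedure was checked on simulated data.

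The 5 genes and the gene lists were chosen with earlier results of these data known, so no test is given for the 5 genes. Named were the 5 genes, called genes of the lists and the listed gene highest per kb, neighbours, the 5 genes nearest in pattern, genes with a fall at least as large as the smallest of the 5 and the next 5, and 9 reference genes. *Vipr1*, *Glp1r*, *Gabra4*, *Gabrq*, *Gad2*, *Gabrp*, *Gabrd*, *Gml*, *Gml2*, *Sctr*, *Gm9962*, *Fam90a1a* and markers that were not called were named in addition, after their values were seen. Alternatives were RLE, upper-quartile, library size and *Ddx4* scaling, 2 other filters, DESeq2 1.42.0, limma-voom (limma 3.58.1), the replicate number as a block, other prior counts and leaving out each library. Some genes that these rules name are not reported here.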

Additional observations from a re-analysis of the deposited data

Results flagged for a closer look

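In 5 of 50 groups of 4 libraries examined, 1 library lay far from the other 3 by Dixon's criterion, where chance gives about 1 in 20 groups. Control library 2 was the low one for *Lypd4* (6.02 CPM), for its neighbour *Dmrtc2* (20.0 CPM) and for *Tex101* (30.8 CPM). The log2 FC of *Lypd4* was -2.86 without that library. In cKO library 4, *Vipr2* was high for its group (1.98 CPM), and in control library 3 *Atp10a* was high (37.7 CPM).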

How the results depend on the processing

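The 5 genes stayed lower in the cKO under all 19 alternatives each. Because they were chosen for a large fall in these same libraries, this adds no support for the fall. The largest shrinkage came with a prior count of 2, which gave a log2 FC of -2.41 for *Gabra5* and -2.51 for *Fam90a1b*, more than the within-genotype SD away. With each library left out in turn the log2 FC ran from -3.32 to -2.74 (*Sct*), -3.19 to -2.71 (*Gabra5*), -3.44 to -2.38 (*Lypd4*, lowest without cKO library 4), -2.66 to -2.15 (*Ankrd63*) and -3.14 to -2.93 (*Fam90a1b*). With *Ddx4* as the scale, 345 genes were called lower and 380 higher in the cKO (578 and 871 with TMM), and calls were 3 of the *Ankrd* family, 2 of the neighbours and 2 of the markers. Without a filter on low counts, 2 genes of the secretin family, 4 of GABA signalling and 4 of the Ly6/uPAR family were called, because genes with few counts entered the test. Of the genes so added, *Gabrq* was lower, and *Glp1r*, *Gad2*, *Gabrp*, *Gabrd*, *Gml* and *Gml2* were higher in the cKO. With 1 library left out, calls were 0 to 1 for GABA signalling (*Gabrq*, which then passed the filter without control library 1 or any 1 of the cKO libraries), 1 to 2 for the secretin family (*Vipr1*, without control library 3) and 3 to 5 for the neighbours (*Pak6* and *Plcb2*, without cKO library 1). No fold or count for *Fam90a1a* could be fitted under any setting, since it had no counts.

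Same-numbered libraries correlated at 0.198, 0.161, 0.108 and -0.0871 in their deviations from the genotype means. Pairs of a control and a cKO library with different numbers ran from -0.198 to 0.182. The paper describes the controls as littermates, but the sources used here tie no number to a litter. For that reason, and as 1 of the 4 same-numbered pairs was negative, the libraries were not treated as paired. The fit with the replicate block gave log2 FC of -3.06 (*Sct*), -2.91 (*Gabra5*), -2.74 (*Lypd4*), -2.41 (*Ankrd63*) and -3.07 (*Fam90a1b*), and 582 lower and 875 higher genes. Calls in the lists were 1, 0, 2, 5 and 3 for the secretin, GABA, Ly6/uPAR and *Ankrd* genes and the neighbours, and 7 for the markers against 6. Depth limits the cKO levels, with at most 8 counts per library for 4 of the 5 genes.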
